A study of Homo sapiens with 6 samples.

Results

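The genes described here are 51 human genes of DNA damage signalling and repair, taken by gene name from a list and found among the 45019 rows of each normalized count table. They comprise 16 genes of base excision repair, 1 of direct reversal, 8 of nucleotide excision repair, 4 of mismatch repair, 12 of homologous recombination and crosslink repair, 5 of damage signalling and 5 of end joining. The cells were MDA-MB-468, an established human line of triple-negative breast cancer, sequenced as total RNA in 2 groups of 3 labelled samples. The DETA/NO group was given 100 µM DETA/NO, a slow-release nitric oxide donor, for 10 days, with replating every 48 h, dishes of 1 replicate pooled at each replating, and 4 h of adherence before each new dose. The untreated group was harvested on day 10 without the compound. The 48 h replating interval and the 4 h of adherence are recorded for its samples too. Both groups came from the same line with no genetic change named in the labels. DETA/NO samples 1 and 2 held identical values and count as 1 library, so that n = 2 DETA/NO and n = 3 untreated libraries. Separate cultures are not stated in the labels, so p-values measure only the spread between libraries. One cell line in culture stands for no tissue, and fewer cells of a type and less RNA per cell cannot be told apart in bulk RNA.

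DNA repair is divided by the kind of lesion. In base excision repair a glycosylase cuts out a single damaged base, an endonuclease opens the strand, and a polymerase and a ligase fill the gap. Nucleotide excision repair removes a short stretch around a bulky lesion, mismatch repair corrects replication errors, and double-strand breaks are either copied from the sister chromatid by homologous recombination or joined directly by end joining. The kinases ATM, ATR and their targets carry the signal to the cell cycle. Nitric oxide and the oxidants formed from it can deaminate and oxidise DNA bases, lesions that are handled mainly by base excision repair.

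Most of the repair genes differed by less than 1.2-fold between DETA/NO and untreated cells. Of the 51 genes, 49 had a mean normalized count of at least 10 and were tested, and ERCC5 and RAD50 were listed at 0 in every library. With limma on log2(value + 1) and a Benjamini-Hochberg adjusted p under 0.05 over all tested genes, 6 genes rose and 9 fell, 30.6% of those tested, where 43.4% of all 16409 tested genes passed (21.7% higher and 21.7% lower). The largest log2 fold changes were 0.35 in ERCC6 and -0.24 in ATM. Of the 49 genes, 2 differed by at least 1.2-fold and 0 by at least 1.5-fold, against 36.1% and 12.2% of all tested genes. The median size of the log2 fold change was 0.0844 in the 49 genes and 0.18 in all tested genes. Among the 11476 genes with a mean count at least that of the lowest repair gene, 103, a comparison set up after seeing the data, that median was 0.144 and 52.3% passed the test. The signed median was 0.0211 in the repair genes and -0.00016 in all tested genes.

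**Figure D1:**
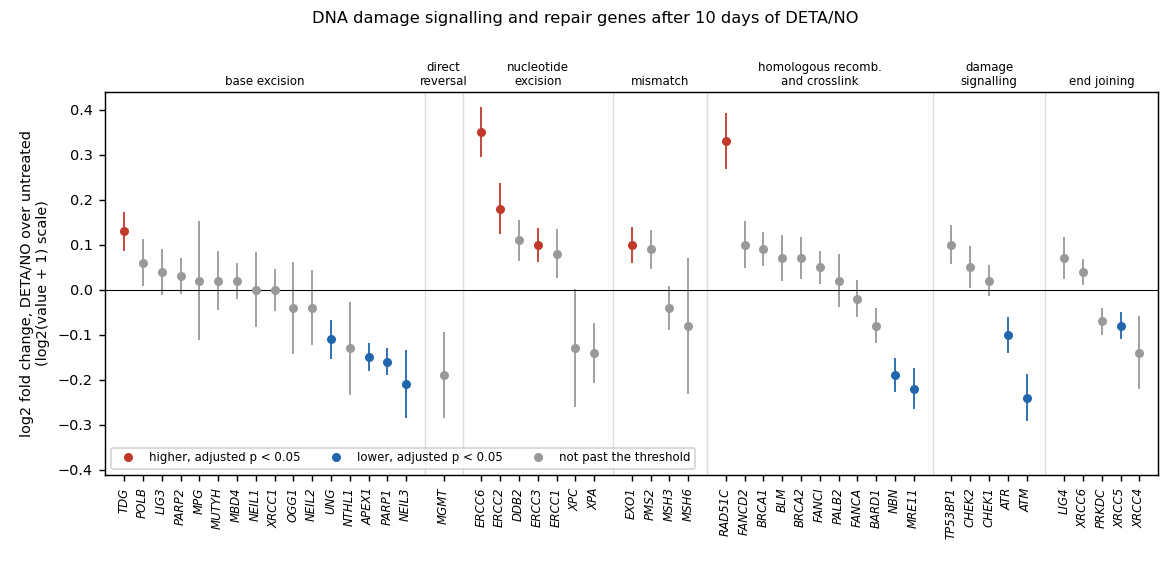
Log2 fold change, DETA/NO over untreated, of the 49 tested repair and signalling genes, ordered within each repair class (points, fitted value; bars, standard error; n = 2 and n = 3 libraries). Red genes rose, blue genes fell and grey genes did not pass an adjusted p of 0.05; the values run from 0.35 in ERCC6 to -0.24 in ATM.

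**Figure D2:**
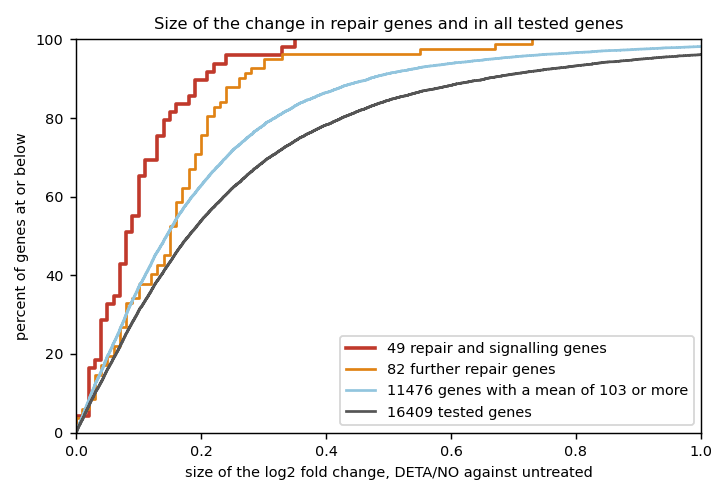
Percent of genes (vertical axis) whose log2 fold change, DETA/NO against untreated, is no larger in size than the value on the horizontal axis, for the 49 repair and signalling genes, 82 further repair genes, the 11476 genes with a mean of 103 or more and all 16409 tested genes. The axis stops at 1; the curve of the 49 genes reaches 100% at 0.35.

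In 13 of the 49 genes both DETA/NO values exceeded every untreated value, and in 11 both were under every untreated value, where the same held in 30.4% and 30.8% of all tested genes and in 61.2% for either direction. Of the 15 called genes, 6 kept the call under all 15 alternative settings tried. These were ERCC6 and RAD51C, which rose, and PARP1, NBN, MRE11 and ATM, which fell. APEX1 and ERCC2 kept it under all but 1. The number of genes that rose was 2 without the shared DETA/NO library 1 and 2, 7 with DETA/NO library 3 left out, and 4, 6 and 5 without untreated libraries 1, 2 and 3. The number that fell was 6, 10, 6, 5 and 10 in the same order.

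**Figure D3:**
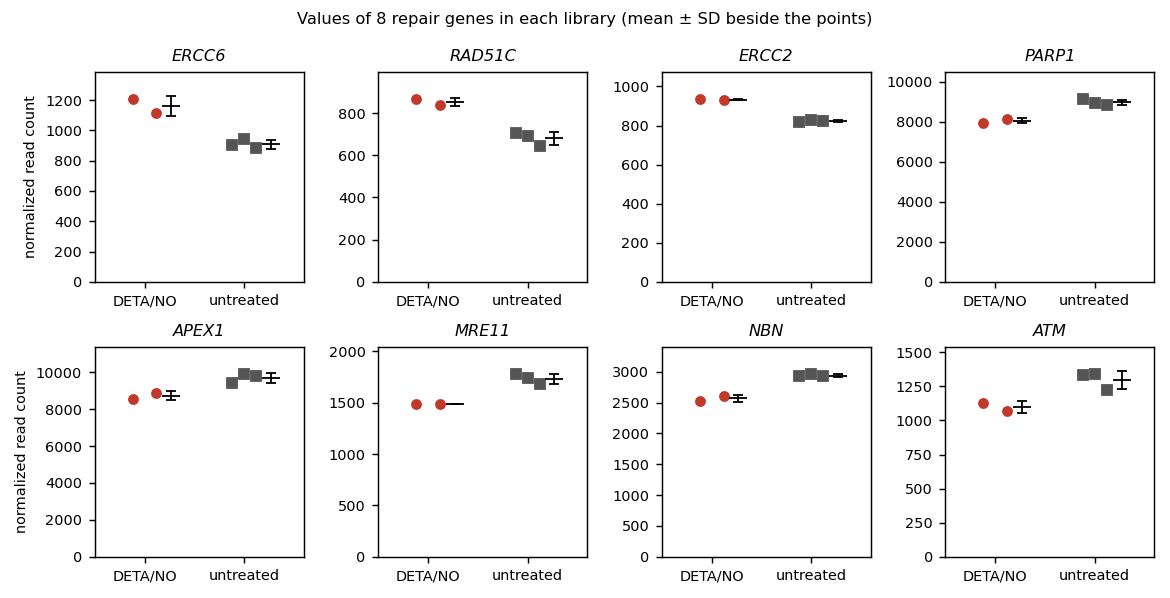
Normalized read counts (vertical axes, from 0) of 8 called repair genes in the 2 DETA/NO libraries (red circles) and the 3 untreated libraries (grey squares), with the mean ± SD of each group beside the points. ERCC6, RAD51C and ERCC2 are higher and the other 5 lower in DETA/NO. The 8 genes were chosen among those called, so that the lack of overlap between their groups follows largely from the choice. Of all tested genes 61.2% had no overlap.

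In base excision repair 4 of 16 genes fell and 1 rose (31.2%, against 43.4% of all tested genes). The remaining 11 did not pass. Leaving out DETA/NO library 1 and 2 or library 3, or untreated library 1, 2 or 3, left 3, 3, 3, 2 and 3 genes that fell and 0, 0, 1, 1 and 0 that rose. PARP1 encodes the polymerase that marks broken strands with ADP-ribose chains and lies on chromosome 1 at 226360691 to 226408079 (GRCh38). It had 7954 and 8132 normalized reads in the DETA/NO libraries, against 9112, 8923 and 8841 in the untreated libraries. All DETA/NO values were below all untreated values, and the log2 fold change was -0.16 ± 0.0306 (SE; limma, adjusted p = 0.0001). APEX1, the endonuclease that opens the strand at a base-free site, lies on chromosome 14 at 20455191 to 20457772 and had 8553 and 8894 reads in DETA/NO, against 9407, 9891 and 9807 in untreated libraries. Its log2 fold change was -0.15 ± 0.0316 (limma, adjusted p = 0.000181), again with no overlap between the groups.

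Among the glycosylases the changes went in both directions. NEIL3, which acts on oxidised bases and on crosslinks, had 452 and 439 reads in DETA/NO, against 478, 554 and 520.3 in untreated libraries (log2 fold change -0.21, limma adjusted p = 0.0228). UNG, which removes uracil, had 1823 and 1952 in DETA/NO, against 2049, 2002 and 2052 in untreated libraries (log2 fold change -0.11, limma adjusted p = 0.0403). TDG, which removes thymine and uracil paired with guanine, was the gene that rose, with 2154 and 2145 in DETA/NO, against 2005, 2021 and 1862 in untreated libraries (log2 fold change 0.13, limma adjusted p = 0.014). The groups did not overlap in these 3 genes, but each lost the call when single libraries were left out. NEIL3 had adjusted p of 0.111 with DETA/NO library 3 left out and 0.137 without untreated library 2. TDG had 0.0661 with DETA/NO library 1 and 2 left out, 0.0514 with DETA/NO library 3 left out and 0.0664 without untreated library 3. UNG had 0.429 with DETA/NO library 1 and 2 left out, and 0.108, 0.0597 and 0.0525 when leaving out untreated libraries 1, 2 and 3. It passed when DETA/NO library 3 was the one left out.

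OGG1, the glycosylase for 8-oxoguanine, had 219 and 229 reads in DETA/NO and 232, 216 and 245 in untreated libraries, and the groups overlapped (log2 fold change -0.04 ± 0.102, limma adjusted p = 0.776). Exons of other genes, mainly CAMK1 on the opposite strand, cover 29% of its exon length. MUTYH, which removes adenine paired with 8-oxoguanine, had 687 and 667 in DETA/NO and 681, 629 and 692 in untreated libraries. The log2 fold changes of the oxidised-base glycosylases NEIL1, NEIL2 and NTHL1 were -0.00, -0.04 and -0.13, and those of MBD4 and MPG, for deaminated and alkylated bases, were both 0.02. None of these passed. Of the steps after strand opening, the following genes did not pass. XRCC1, the scaffold of single-strand break repair, its partner ligase LIG3 and the gap-filling polymerase POLB had log2 fold changes of 0.00, 0.04 and 0.06. PARP2, another ADP-ribose polymerase of this pathway, had 3588 and 3211 reads in DETA/NO and 3325, 3363 and 3277 in untreated libraries (log2 fold change 0.03, adjusted p = 0.571). The ratio of PARP1 to PARP2 values was 2.22 and 2.53 in DETA/NO, against 2.74, 2.65 and 2.70 in untreated libraries. An exact two-sided permutation test of this ratio gave p = 0.2, the smallest that the 10 arrangements of these libraries allow.

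MGMT, the protein that takes alkyl groups off guanine onto its own cysteine, is the 1 gene of direct reversal. It had 279 and 345 reads in DETA/NO and 353, 328 and 384 in untreated libraries. DETA/NO library 1 and 2 was below all others, while library 3 lay among the untreated libraries, and the log2 fold change was -0.19 ± 0.0952 (limma, adjusted p = 0.109). Without DETA/NO library 3 it was -0.34 with an adjusted p of 0.0135.

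In nucleotide excision repair 3 of 7 tested genes rose and 0 fell by limma (42.9%, close to the 43.4% of all tested genes). In edgeR and DESeq2 0 fell, and 1 was lower at an unadjusted p under 0.05 in limma. The median log2 fold change of the 7 genes was 0.099. Leaving out DETA/NO library 1 and 2 or library 3, or untreated library 1, 2 or 3, left 1, 3, 2, 2 and 4 genes that rose. ERCC6 encodes the ATPase that starts repair where RNA polymerase II has stalled and lies on chromosome 10 at 49455368 to 49539538. It had 1206 and 1115 reads in DETA/NO, against 903, 942 and 881 in untreated libraries. With a log2 fold change of 0.35 ± 0.0557 (limma, adjusted p = 4.63e-06), or 27.6% higher, it was the largest change of all 49 genes. ERCC2 and ERCC3 encode the helicases of TFIIH, the factor that opens DNA for both transcription and repair. ERCC2 lies on chromosome 19 at 45349837 to 45370918 and had 934 and 931 reads in DETA/NO, against 816, 828 and 823 in untreated libraries (log2 fold change 0.18, limma adjusted p = 0.00955). The replicates of ERCC2 were close, with SDs of 2.48 in DETA/NO and 5.94 in untreated libraries, but without DETA/NO library 1 and 2 the adjusted p was 0.0547. ERCC3 had 3271 and 3117 in DETA/NO, against 2979, 2918 and 3047 in untreated libraries (log2 fold change 0.10, limma adjusted p = 0.0335). Its adjusted p was 0.328 with DETA/NO library 1 and 2 left out, and 0.0852 and 0.134 when leaving out untreated libraries 1 and 2.

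The remaining nucleotide excision genes did not pass or were not tested. DDB2, which finds ultraviolet lesions, had 1669 and 1713 reads in DETA/NO, above the 1539, 1562 and 1616 of the untreated libraries, but its adjusted p was 0.0592 (0.0243 without untreated library 3). XPC, the damage sensor of the whole genome, ranged from 130 to 178 reads over both groups, which overlapped. Exons of other genes, mainly AC093495.1 on the opposite strand, cover 30.4% of XPC exon length. XPA, which verifies the lesion, had 621 and 568 in DETA/NO, below the 642, 642 and 676 of the untreated libraries, with a log2 fold change of -0.14 and an adjusted p of 0.0974. ERCC1, a subunit of the nuclease that cuts on the 5′ side, had a log2 fold change of 0.08 (limma, adjusted p = 0.219). ERCC5, the nuclease that cuts on the 3′ side, was listed at 0 throughout, as was the read-through gene BIVM-ERCC5, whose exons on the same strand cover 63.2% of ERCC5 exon length. The table alone does not show whether ERCC5 was silent.

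Of 17 further tested nucleotide excision genes from a wider list, 7 rose and 4 fell (64.7%, against 43.4% of all tested genes). RAD23B, which holds XPC in a stable complex, rose by 0.21 on the log2 scale, with 8076 and 8247 reads in DETA/NO, against 7071, 7043 and 7017 in untreated libraries. CETN2, another protein of the XPC complex, fell by 0.20, with 1825 and 1947 in DETA/NO, against 2213, 2163 and 2132 in untreated libraries. RPA3, a subunit of the single-strand binding protein, fell by 0.24. These 3 genes kept the call without each library in turn. Among the 10 listed genes of TFIIH, grouped together after their values were seen, 9 were tested, 6 rose and 1 fell. Of all tested genes 43.4% passed and 21.7% were called higher. However, a set grouped after its values were seen cannot be weighed against these shares. Of the 6 genes that rose, only CDK7 kept the call without each library in turn. Beside ERCC2 and ERCC3, CDK7, the kinase subunit, had 1795 and 1784 reads in DETA/NO, against 1559, 1578 and 1532 in untreated libraries (log2 fold change 0.20, limma adjusted p = 0.000374). Its partners CCNH and MNAT1 rose by 0.17 and 0.21, with adjusted p of 0.277 and 0.327 with DETA/NO library 3 left out, and of 0.0842 and 0.0582 when untreated library 2 was left out. GTF2H3 rose by 0.15, with an adjusted p of 0.117 with DETA/NO library 1 and 2 left out. GTF2H5 was lower by a log2 fold change of -0.17 (adjusted p = 0.0352) and lost the call without any 1 of the 5 libraries, with adjusted p of 0.0506 to 0.215. GTF2H1 had a log2 fold change of 0.04, GTF2H2 of -0.21 (adjusted p = 0.059, and 0.036 without untreated library 3), and GTF2H4, which other genes overlap over 99% of its span, had 0 in each library.

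**Figure D4:**
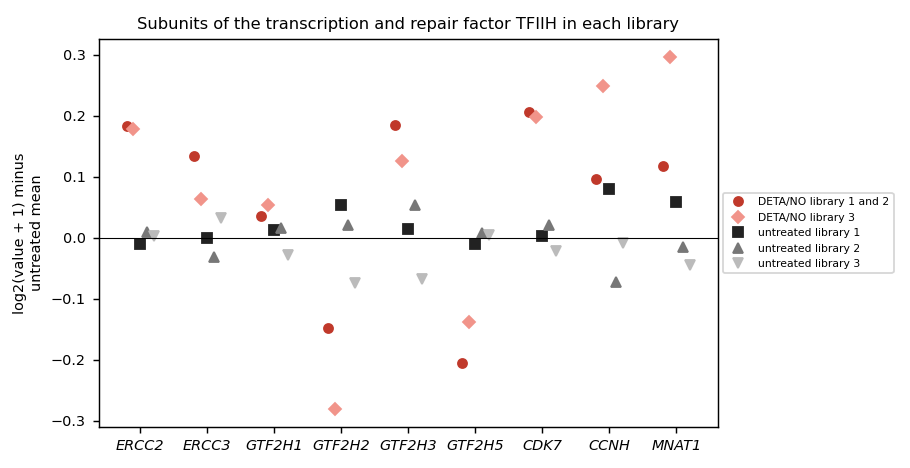
Level of 9 TFIIH subunit genes in each library, as log2(value + 1) minus the mean of the untreated libraries (red symbols, 2 DETA/NO libraries; black to grey symbols, 3 untreated libraries). ERCC2, ERCC3, GTF2H1, GTF2H3, CDK7, CCNH and MNAT1 are higher in both DETA/NO libraries, and GTF2H5 and GTF2H2 are lower. GTF2H1 and GTF2H2 did not pass an adjusted p of 0.05.

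Mismatch repair held 4 genes, of which 1 rose and 0 fell by limma (25%, against 43.4% of all tested genes). In edgeR and DESeq2 0 were lower, as were 0 at an unadjusted p under 0.05 in limma. EXO1, the exonuclease that removes the strand with the error, had 2953 and 2881 reads in DETA/NO, against 2769, 2819 and 2599.7 in untreated libraries. Its log2 fold change of 0.10 had an adjusted p of 0.0493 in limma, just under the threshold, and of 0.243 and 0.0723 with DETA/NO library 1 and 2 or library 3 left out. Without untreated libraries 1 and 3 it was 0.0751 and 0.199. PMS2, the partner that nicks the strand, had 2400.1 and 2263 in DETA/NO and 2085, 2281 and 2201 in untreated libraries (adjusted p = 0.0909, and 0.047 with DETA/NO library 3 left out). MSH3 and MSH6, which recognise loops and mispairs, had log2 fold changes of -0.04 and -0.08. MSH6 was low in all libraries, at 102 and 96.9 reads in DETA/NO and 105, 89.3 and 124 in untreated libraries, and exons of other genes, mainly FBXO11 on the opposite strand, cover 16.2% of its exon length. In the wider list PMS1 fell, with 1488 and 1456 in DETA/NO, against 1766, 1750.1 and 1798 in untreated libraries (log2 fold change -0.27, limma adjusted p = 9.19e-06). MLH3 rose by 0.18 on the log2 scale, with adjusted p of 0.378 with DETA/NO library 1 and 2 left out and of 0.0583 and 0.0679 without untreated libraries 1 and 2.

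In homologous recombination and crosslink repair 1 of 11 tested genes rose and 2 fell (27.3%, against 43.4% of all tested genes). RAD51C, which helps to load the recombinase on single strands, lies on chromosome 17 at 58692573 to 58735611. It had 865 and 840.4 reads in DETA/NO, against 704, 693 and 642 in untreated libraries, a log2 fold change of 0.33 ± 0.0622 (limma, adjusted p = 6.42e-05), or 25.5% higher. MRE11 and NBN encode the nuclease and the adaptor of the complex that detects broken ends and brings ATM to them. MRE11, on chromosome 11 at 94415578 to 94493908, had 1485 and 1486 reads in DETA/NO, against 1777, 1736 and 1682 in untreated libraries (log2 fold change -0.22 ± 0.0449, limma adjusted p = 0.000157). NBN had 2529.7 and 2611 in DETA/NO, against 2932, 2961 and 2928 in untreated libraries (log2 fold change -0.19 ± 0.0375, limma adjusted p = 8.22e-05). The groups did not overlap in either gene. The ratio of MRE11 to NBN values was 0.587 and 0.569 in DETA/NO, against 0.606, 0.586 and 0.574 in untreated libraries (exact two-sided permutation p = 0.6). RAD50, the third subunit, was listed at 0 in every library, and exons of AC116366.3 on the same strand cover 79.7% of its exon length. AC116366.3 had 86.4 and 93.1 reads in DETA/NO and 96.5, 110.9 and 92.4 in untreated libraries. The whole complex could thus not be read.

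The BRCA genes and their partners did not pass. BRCA1 had 2923 and 2817 reads in DETA/NO, above the 2695, 2707 and 2683 of the untreated libraries. Its log2 fold change of 0.09 ± 0.0377 had an adjusted p of 0.0512 in limma, of 0.0439 in edgeR and of 0.0432 with a filter at a mean of 50. BARD1, which pairs with BRCA1, had 2752 and 2766 in DETA/NO, below the 2977, 2964 and 2788 of the untreated libraries (log2 fold change -0.08, adjusted p = 0.117, and 0.0188 without untreated library 3). The ratio of BARD1 to BRCA1 values was thus 0.942 and 0.982 in DETA/NO, against 1.10, 1.09 and 1.04 in untreated libraries. An exact two-sided permutation test gave p = 0.2, the smallest that these libraries allow. BRCA2, which delivers the recombinase, had 2973 and 2648 in DETA/NO and 2656, 2796 and 2562 in untreated libraries, and the 2 DETA/NO libraries lay apart (adjusted p = 0.223, and 0.0139 with DETA/NO library 3 left out). PALB2, the link between BRCA1 and BRCA2, had a log2 fold change of 0.02. The Fanconi anaemia genes FANCA, FANCD2 and FANCI, which act at crosslinks, had log2 fold changes of -0.02, 0.10 and 0.05, and the helicase BLM had 0.07.

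The largest change in the wider list lay in this class. RAD51B, which acts in the same step, had 2878 and 2789.9 reads in DETA/NO, against 4810.1, 4669.5 and 4618 in untreated libraries. This log2 fold change of -0.73 ± 0.0354 (limma, adjusted p = 2.94e-17) was in the opposite direction to that of RAD51C, with which it forms a complex. FANCL, the ubiquitin ligase of the Fanconi core, had 2044 and 2231 in DETA/NO, against 2690.3, 2643 and 2706 in untreated libraries (log2 fold change -0.33). MUS81, a nuclease for branched DNA, rose by 0.30, and UIMC1, which brings BRCA1 to ubiquitin at breaks, by 0.16. Of the 25 tested genes on the wider list for this class, 5 rose and 3 fell (32%, against 43.4% of all tested genes), and these 4 kept the call without each library in turn. Without DETA/NO library 1 and 2 the counts were 2 and 5, and without untreated library 3 they were 4 and 6.

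Of 5 damage signalling genes 2 fell and 0 rose by limma (40%, close to the 43.4% of all tested genes). In edgeR and DESeq2 0 were higher, and 1 was higher at an unadjusted p under 0.05 in limma. ATM, the kinase that answers double-strand breaks, lies on chromosome 11 at 108222484 to 108369102. It had 1127 and 1067 reads in DETA/NO, against 1332, 1339 and 1224 in untreated libraries, a log2 fold change of -0.24 ± 0.0527 (limma, adjusted p = 0.000352). That was 15.4% lower and the largest fall of the 49 genes. Without DETA/NO library 1 and 2, or untreated library 1 or 2, 1 signalling gene fell. ATR, the kinase that answers stalled replication, had 3127 and 3249 in DETA/NO and 3508, 3525 and 3216 in untreated libraries. The groups of ATR overlapped through untreated library 3, and its adjusted p of 0.0462 became 0.291 with DETA/NO library 1 and 2 left out, and 0.197 and 0.204 when leaving out untreated libraries 1 and 2. CHEK1, the target kinase of ATR, had 4222 and 4219.9 in DETA/NO and 4172, 4195 and 4103 in untreated libraries (log2 fold change 0.02 ± 0.0339, adjusted p = 0.636). CHEK2, the target kinase of ATM, had a log2 fold change of 0.05 (limma, adjusted p = 0.396). TP53BP1, which protects broken ends from resection, had 0.10 (adjusted p = 0.0677, with 0.043 with DETA/NO library 3 left out and 0.0394 without untreated library 2).

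In the wider signalling list 5 of 15 genes rose and 4 fell (60%, against 43.4% of all tested genes). WEE1, the kinase that holds CDK1 inactive until repair is complete, had 4711 and 5118 reads in DETA/NO, against 7278, 7286 and 6979 in untreated libraries (log2 fold change -0.55 ± 0.0353, limma adjusted p = 6.99e-14). RNF168, a ubiquitin ligase that marks chromatin at breaks, had 1985 and 2141 in DETA/NO, against 2450.5, 2472 and 2342 in untreated libraries (log2 fold change -0.23). RIF1, which acts with TP53BP1, rose by 0.14, and CLSPN, the adaptor between ATR and CHEK1, by 0.16, with an adjusted p of 0.0857 for CLSPN without DETA/NO library 1 and 2. The number of genes that rose was then 3 and of genes that fell 3.

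In end joining 1 of 5 genes was lower and 0 higher by limma (20%, against 43.4% of all tested genes). In edgeR and DESeq2 0 were higher, as were 0 at an unadjusted p under 0.05 in limma. XRCC5 and XRCC6 encode the subunits of the Ku ring that caps broken ends. XRCC5 had 13046 and 13736 reads in DETA/NO, against 14313, 14372 and 13843 in untreated libraries (log2 fold change -0.08 ± 0.0303, limma adjusted p = 0.0272). Its adjusted p was 0.379 with DETA/NO library 1 and 2 left out, and 0.125 and 0.106 when leaving out untreated libraries 1 and 2. XRCC6 had 16890.1 and 17024 in DETA/NO, above the 16460.3, 16817 and 16077 of the untreated libraries, without passing (log2 fold change 0.04, adjusted p = 0.228). The ratio of XRCC5 to XRCC6 values was 0.772 and 0.807 in DETA/NO, against 0.870, 0.855 and 0.861 in untreated libraries. Its exact two-sided permutation p was 0.2, again the smallest that these libraries allow. PRKDC, the catalytic subunit of the kinase that Ku recruits, had 17832 and 18427 in DETA/NO and 19330.3, 19505 and 18345 in untreated libraries. Its log2 fold change of -0.07 had an adjusted p of 0.0525, and of 0.0396 with DETA/NO library 3 left out, 0.00183 without untreated library 3, 0.0237 under TMM scaling, 0.0113 under quantile normalization and 0.0217 with no filter. XRCC4 and LIG4, which seal the ends, had log2 fold changes of -0.14 and 0.07 and did not pass. In the wider list POLQ, the polymerase of an alternative end joining route, had 2443 and 2396 in DETA/NO. Untreated libraries had 2139, 2146 and 2046 (POLQ log2 fold change 0.20, limma adjusted p = 0.000185). Of 4 tested genes on that list (1 of them also counted in base excision) 1 rose by limma (25%, against 43.4% of all tested genes). By limma, edgeR or DESeq2 0 fell, with 0 lower at an unadjusted p under 0.05 in limma.

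Side by side, the classes had median log2 fold changes of -0.0003 in base excision, 0.099 in nucleotide excision, 0.027 in mismatch repair, 0.049 in homologous recombination and crosslink repair, 0.0222 in damage signalling and -0.0719 in end joining. The share of tested genes called was 31.2%, 42.9%, 25%, 27.3%, 40% and 20% in that order. It was 43.4% in all tested genes and 52.3% in genes with a mean count of at least 103. The shares of nucleotide excision and damage signalling, classes of few genes, lay close to the 43.4%. Summed over its 16 genes, base excision repair held 32620 and 33016 normalized reads in DETA/NO, against 34512, 34625 and 34582 in untreated libraries, a difference carried mainly by PARP1 and APEX1. The 7 nucleotide excision genes summed to 8980 and 8674 in DETA/NO, against 8046, 8110 and 8278 in untreated libraries. The 4 mismatch genes summed to 6684 and 6497 in DETA/NO, against 6261, 6442 and 6196 in untreated libraries. In these classes the sums did not overlap between the groups, and taken singly 61.2% of all tested genes did not overlap either. The sums of homologous recombination and crosslink repair and of damage signalling overlapped. Of the 16 base excision genes, 8 had positive and 8 had negative log2 fold changes. The 5 end joining genes summed to 49750 and 51096 in DETA/NO and to 52031, 52591 and 50178 in untreated libraries, which overlap.

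Enzymes that hold an iron-sulfur cluster are of interest here because nitric oxide can attack such clusters, as known from biochemistry. Of 6 listed, the glycosylases MUTYH and NTHL1, the helicases ERCC2, BRIP1 and RTEL1 and the nuclease-helicase DNA2, 5 were tested and 1 rose, ERCC2 (20%, against 43.4% of all tested genes), with a median log2 fold change of 0.0294. Once DETA/NO library 1 and 2 was left out, 0 rose by limma (ERCC2 adjusted p = 0.0547). RTEL1 lay under the filter, with 4.43 to 11.5 reads.

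Per kilobase of exon, the scale on which levels can be compared between genes, the untreated cells held most of APEX1 (5140 normalized reads per kb), XRCC6 (5000), XRCC5 (2590), PARP1 (1250) and PRKDC (1240). In the DETA/NO cells the same genes had 4630, 5160, 2450, 1120 and 1180 per kb. XRCC6 lay above APEX1 in both DETA/NO libraries, with 5140 and 5180 against 4540 and 4720 per kb. In the untreated libraries the order varied, with 5010, 5110 and 4890 for XRCC6 and 4990, 5240 and 5200 for APEX1. Below these, PARP2 and UNG had 830 and 735 per kb in DETA/NO and 811 and 792 in untreated cells. At the low end of the 49 genes lay MSH6 with 9.04 per kb in DETA/NO and 9.65 in untreated cells, OGG1 with 25.7 and 26.5, XPC with 29.1 and 32.1, and ATM with 45.8 and 54.2. Exon lengths are unions over GENCODE release 29 transcripts, which for ATM (23972 bases) include long variants that lower the value. Exons of other genes cover 16.2% of MSH6, 29% of OGG1 and 30.4% of XPC exon length, and 1.5% of that of ATM. The part of this overlap in the low values was not tested.

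The promoters shown were chosen by the size of the change among called genes with a sequence to hand. ERCC6 and RAD51C rose most, and ATM and MRE11 fell most. These genes also kept their calls under every setting. Each promoter runs from 150 bases before the transcript start to base 20 after it, on the strand of the gene. The sequences are from RefSeq (GRCh38.p14), taking the first window listed for a gene. Capitals mark matches, on either strand, to the CREB motif TGACGTCA, the NRF1 motif (GCGCA, any base, then GCGC), the CCAAT box CCAAT, the GC box GGGCGG or the ETS motif CCGGAAG.
ERCC6, chr10:49539102-49539271, minus strand: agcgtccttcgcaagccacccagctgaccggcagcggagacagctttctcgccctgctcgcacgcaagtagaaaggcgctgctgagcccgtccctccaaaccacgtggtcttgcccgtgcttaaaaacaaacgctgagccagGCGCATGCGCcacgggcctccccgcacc
RAD51C, chr17:58692423-58692592, plus strand: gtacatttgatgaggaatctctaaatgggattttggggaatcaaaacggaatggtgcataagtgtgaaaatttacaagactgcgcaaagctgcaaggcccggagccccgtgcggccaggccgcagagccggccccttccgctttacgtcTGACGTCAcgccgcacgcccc
ATM, chr11:108222917-108223086, plus strand: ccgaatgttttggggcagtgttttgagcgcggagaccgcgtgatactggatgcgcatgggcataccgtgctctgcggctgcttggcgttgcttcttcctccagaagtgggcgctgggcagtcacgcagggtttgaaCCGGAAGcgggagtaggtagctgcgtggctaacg
MRE11, chr11:94493825-94493994, minus strand: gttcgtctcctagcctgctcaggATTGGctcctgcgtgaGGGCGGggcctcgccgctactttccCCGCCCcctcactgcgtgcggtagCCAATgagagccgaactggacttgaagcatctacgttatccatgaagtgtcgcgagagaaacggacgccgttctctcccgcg
The capitals in ERCC6 are an NRF1 motif across the start, those in RAD51C a CREB motif across the start, and those in ATM an ETS motif just before it. MRE11 has CCAAT boxes and GC boxes further upstream. In the longer windows from 250 bases before the start to 50 after it, ERCC6 and ATM both held the NRF1 motif, ERCC6 and MRE11 the GC box, and ATM and MRE11 the CCAAT box and the ETS motif.

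Of the 51 genes, 45 had a promoter window, from 250 bases before the start to 50 after it. The CREB motif was in 2 of the 6 windows of genes that rose, EXO1 and RAD51C, in 0 of the 7 windows of genes that fell and in 1.98% of all 27305 windows. The NRF1 motif was in 2 of 6 (ERCC6 and ERCC2), in 2 of 7 (NEIL3 and ATM) and in 6.28% of all. The CCAAT box was in 2 of 6, in 5 of 7 and in 35.7% of all, the GC box in 3 of 6, in 5 of 7 and in 44.6% of all, and the ETS motif in 1 of 6, in 3 of 7 and in 10.7% of all. Over all 45 windows the shares were 8.89% for CREB, 24.4% for NRF1, 51.1% for CCAAT, 75.6% for the GC box and 33.3% for ETS. Neither CREB nor NRF1 motifs mark a site of binding by themselves, and windows for NBN, XRCC5, PRKDC, NEIL2, POLB and FANCI were not used here.

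**Figure D5:**
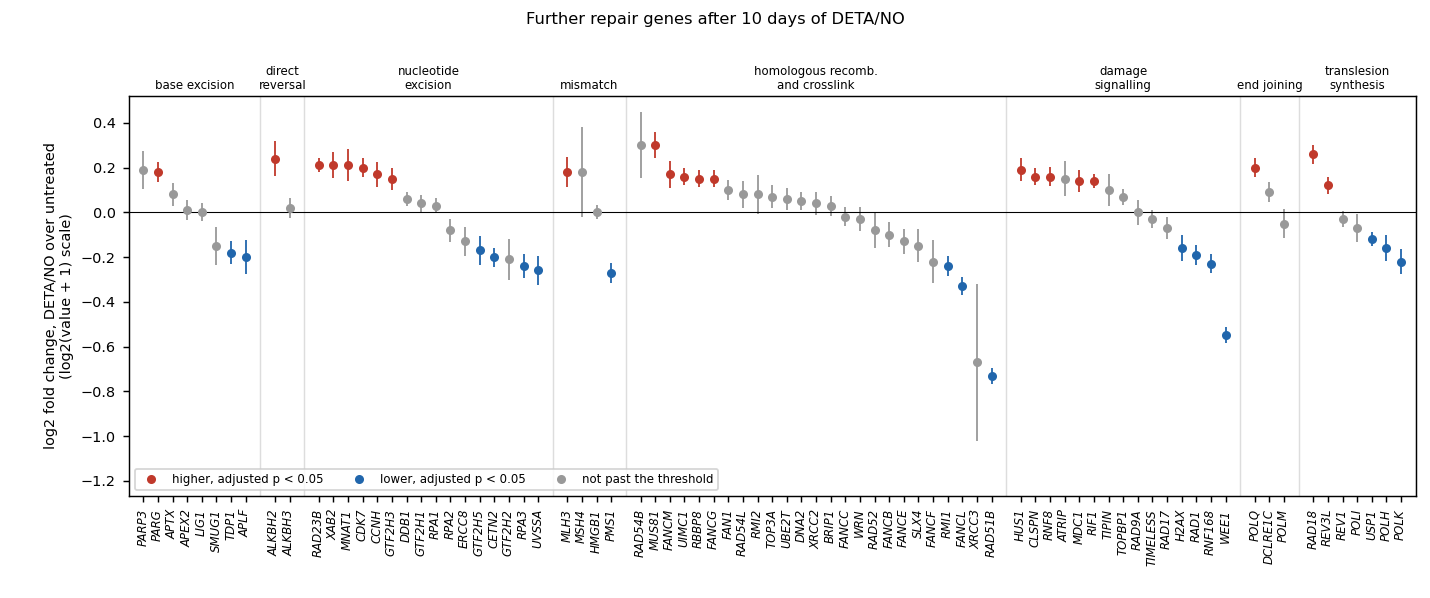
Log2 fold change, DETA/NO over untreated, of 80 of the 82 further tested repair genes by class (points, fitted value; bars, standard error; n = 2 and n = 3 libraries; red, rose; blue, fell; grey, not past an adjusted p of 0.05). RAD51B at -0.73 and WEE1 at -0.55 are the lowest called genes shown and MUS81 at 0.30 the highest.

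The wider list held 91 further repair genes, of which 82 were tested, 23 rose and 17 fell (48.8% against 43.4% of all tested genes). Leaving out single libraries gave 14 to 22 rising and 14 to 19 falling genes, with 14 of each without DETA/NO library 1 and 2. Some base excision genes of the list are tied to PARP1 and its products. PARG, which removes ADP-ribose chains, had 2158 and 2051 reads in DETA/NO, against 1873, 1894 and 1801 in untreated libraries, and rose by 0.18 on the log2 scale (limma, adjusted p = 0.000922). APLF, which binds such chains at breaks, had a log2 fold change of -0.20 (limma, adjusted p = 0.0369), with adjusted p of 0.273 with DETA/NO library 1 and 2 left out, and 0.0699 and 0.102 when leaving out untreated libraries 1 and 3. TDP1, which frees topoisomerase from DNA ends, fell by 0.18, with an adjusted p of 0.0989 with DETA/NO library 1 and 2 left out. Among direct reversal genes ALKBH2, an iron-dependent DNA demethylase, had 469.8 and 454 in DETA/NO, against 405, 373 and 395 in untreated libraries (log2 fold change 0.24, adjusted p = 0.0126). Its adjusted p was 0.0938 with DETA/NO library 1 and 2 left out, and 0.0615 when untreated library 2 was left out.

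Translesion synthesis copies past damage that has not been repaired, and 2 of its 7 listed genes rose and 3 fell (71.4%, against 43.4% of all tested genes). RAD18, the ligase that marks the sliding clamp for bypass, had 2123 and 2135 reads in DETA/NO, against 1807, 1752 and 1772 in untreated libraries (log2 fold change 0.26, limma adjusted p = 5.95e-06). REV3L, the catalytic subunit of polymerase zeta, rose by 0.12, with an adjusted p of 0.11 once DETA/NO library 1 and 2 was left out, where 1 gene rose. USP1, which removes the mark that RAD18 sets, had 11156 and 11056 in DETA/NO, against 12029.6, 12433 and 11704 in untreated libraries (log2 fold change -0.12). POLK, a bypass polymerase, fell by 0.22. The genes that fell numbered 2 with DETA/NO library 1 and 2 left out or untreated library 1.

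Many repair genes follow the cell cycle, so markers of cycling cells are given beside them. Of 18 S phase genes 3 rose and 4 fell (38.9%, against 43.4% of all tested genes), and they summed to 82180 and 82330 normalized reads in DETA/NO, against 86430 to 89150 in untreated libraries. Of 16 G2/M genes 6 rose and 5 fell (68.8%), and they summed to 118600 and 117300 in DETA/NO and 114900 to 122400 in untreated libraries. The part of these genes in the changes of the repair genes was not tested. Library totals were 28897422 to 34637343 recovered reads, and the 6 epithelial markers of the line (EPCAM, KRT8, KRT18, KRT19, CDH1 and EGFR) summed to 360000 and 364200 in DETA/NO, against 336600 to 338400 in untreated libraries. EGFR, which rose (log2 fold change 0.15), held most of that sum, KRT19 fell by 0.18 on the log2 scale, and the other markers did not pass. Of the fibroblast, immune and endothelial markers, CD68 was at 0 in every library, and COL1A1 (842 and 836 in DETA/NO, against 567 to 629 in untreated libraries) and CD14 (390 and 456, against 909 to 963) were the highest. The 6 fibroblast markers summed to 849.9 and 840.4 in DETA/NO, against 578 to 635 in untreated libraries, nearly all of it COL1A1, and the other 5 had at most 4.90 reads in any library. The 6 immune markers summed to 428 and 492 in DETA/NO, against 923 to 976 in untreated libraries, and CD14 made up most of that sum. PTPRC went the other way, with 34.3 and 33.2 reads in DETA/NO, against 14.3, 8.83 and 16.6 in untreated libraries (log2 fold change 1.33, limma adjusted p = 0.000984). The 4 endothelial markers summed to 499 and 558 in DETA/NO, against 325 to 363 in untreated libraries, and CDH5 and KDR rose while PECAM1 and VWF did not pass. Their part in the results was not tested.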

How the data were processed

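Total RNA libraries were prepared with a KAPA RNA Hyper Prep kit, per the labels' protocols. The submitters' processing notes name TopHat2 2.1.1, featureCounts 2.0.3, Bowtie2 2.5.0.0, DESeq2 1.38.3 and the build GRCh38, with no role or order; the annotation and the strand setting of the counting are not given in the sources used here. The deposited values are a signal, read counts per gene divided by 1 size factor per library by the authors, as the values themselves show: 100% came out as whole multiples of 1 read within 0.01. The files of DETA/NO samples 1 and 2 were identical and were used once. Rows whose names had become dates (27, with 0.246% of reads) were kept without a gene name.

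Normalized counts were tested on log2(value + 1) with limma 3.58.1 (trend and robust options, R 4.3.3) in genes with a mean of at least 10, DETA/NO against untreated, with no covariate and Benjamini-Hochberg adjustment over all 16409 tested genes. Log2 fold changes are on that scale and understate changes of low genes. On the recovered whole reads, edgeR 4.0.16 (quasi-likelihood test) called 3621 genes higher and 3480 lower, and DESeq2 1.42.0 called 2786 and 2556. The fit was also tested on simulated data. Other alternatives were TMM scaling, quantile normalization, a pseudocount of 5, no filter, a filter at a mean of 50, limma without its trend and robust options, the replicate number as a block, and omission of 1 library at a time.

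The genes and lists were chosen with earlier results of these data known. Values are given for up to 3 higher and 3 lower called genes per class by adjusted p, for PARP1, BRCA1, BRCA2, ATM, MGMT, OGG1 and PRKDC always, and for up to 2 higher and 2 lower genes per class of the wider list; other genes named were picked after their values were seen. Positions, exon lengths and overlaps are from GENCODE release 29 (GRCh38). The values of some genes of the wider and marker lists are not reported here.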

Additional observations from a re-analysis of the deposited data

How the results depend on the processing

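Of 630 comparisons of 42 named genes with their alternatives, 548 kept the side of the threshold, 72 lost the call and 10 gained it. The direction reversed in 0 comparisons where either fit called the gene. A change of sign without a call in either fit was counted among the 548. BRCA2, for example, had a log2 fold change of 0.07 in the main fit and of -0.01 at its lowest. The count of all genes that rose was 2262 in limma without its trend and robust options, against 3565. The repair genes that rose numbered 3 and those that fell 4 in that setting, and 3 and 5 in DESeq2; leaving out 1 library gave 2 to 7 that rose and 5 to 10 that fell. The cause was not tested. The median log2 fold change of base excision repair was -0.0456 with the replicate block that takes the shared DETA/NO library as number 1, and that of damage signalling was -0.0118 under quantile normalization. Leaving out 1 library gave medians of -0.0466 to 0.0069 in base excision, 0.0641 to 0.1287 in nucleotide excision, 0.0138 to 0.0491 in mismatch, 0.0019 to 0.0682 in homologous recombination and crosslink repair, -0.0192 to 0.0288 in damage signalling and -0.0992 to -0.0453 in end joining. The labels number the samples of both groups 1 to 3 without saying what a number shares, and with 2 distinct DETA/NO libraries fewer than 3 pairs exist. Deviations of the libraries numbered 3 had a correlation of 0.0301. With the replicate block, 3320 genes rose and 3285 fell (7 and 7 of the repair genes) when the shared library was number 1, and 3143 and 3178 (4 and 6) when it was number 2. With 2 DETA/NO libraries, changes of under 1.2-fold rest on few replicates, and the row at 0 of ERCC5 and of RAD50 could not be tested.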
